A study of Mus musculus with 77 samples.

Results

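Genes that mature pancreatic beta cells use to sense glucose and to release insulin were read from a count table of 46078 genes, namely Mafa, Slc2a2, G6pc2, Slc30a8, Glp1r, Ucn3, Abcc8, Kcnj11 and Iapp. These 9 genes were chosen by name, and all 9 are rows of the table. The cells were mouse pancreatic ductal organoids, spherical cultures of duct epithelium from C57BL/6 mice, which had been given lentiviruses carrying an inducible (Tet-on) transgene and the transactivator that drives it. The question was how far Neurogenin3 (Ngn3), the transcription factor that starts endocrine differentiation in the pancreas, takes such cells, and whether a mutant that cannot be phosphorylated at several sites takes them further. At 2 days of induction the groups were cells expressing GFP only, wild-type (WT) Ngn3 with GFP, and 6S-A Ngn3 with GFP, in which the phosphorylated serines are replaced by alanine. At 8 days the groups were WT Ngn3, 6S-A Ngn3, and cells without color sorted from the WT or from the 6S-A organoids, which are the controls of that day, so the control is of a different kind on each day. All groups share the organoid culture and the viral system, and no sample is of islets or beta cells. A library was made from 50 cells sorted together, and each group had 3 biological replicates of 1 to 6 pools. The labels do not say whether the replicates came from separate animals, so p-values measure the spread between these samples.

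The genes fall into a chain of roles in the beta cell. Glucose enters through the transporter GLUT2 (Slc2a2) and is phosphorylated, a step that the islet glucose-6-phosphatase subunit G6pc2 reverses. The ATP made from it closes the K-ATP channel, which is built from the pore Kir6.2 (Kcnj11) and the sulfonylurea receptor SUR1 (Abcc8), and closing the channel depolarizes the cell. Insulin is packed into granules with zinc brought in by ZnT8 (Slc30a8) and with amylin (Iapp), and GLP-1, acting on its receptor Glp1r, strengthens release. Mafa is a transcription factor of the mature beta cell, and urocortin 3 (Ucn3) is a peptide that mouse beta cells begin to make as they mature. The K-ATP channel is also found in other islet cells, and amylin is also made in delta cells, so neither marks beta cells alone.

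On GRCm38, Abcc8 (ENSMUSG00000040136, chr7:46104523-46180033) and Kcnj11 (ENSMUSG00000096146, chr7:46093953-46100764) are neighbours on the minus strand, 3758 bases apart. Slc2a2 (ENSMUSG00000027690) lies at chr3:28697903-28731359, G6pc2 (ENSMUSG00000005232) at chr2:69211073-69227841, Glp1r (ENSMUSG00000024027) at chr17:30901817-30940791 and Iapp (ENSMUSG00000041681) at chr6:142298423-142303961. Mafa (ENSMUSG00000047591) lies at chr15:75745490-75748228, Slc30a8 (ENSMUSG00000022315) at chr15:52295553-52335798 and Ucn3 (ENSMUSG00000044988) at chr13:3940688-3945349. All are protein-coding, and no exon of theirs overlaps an exon of another annotated gene.

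Neurogenin proteins bind E-boxes, the letters CANNTG. RefSeq promoter windows (250 bases before to 50 after the start, GRCm38.p6) were at hand for 5 of the 9 genes, in 6 windows, and each window held at least 1 E-box, as did 72.3% of all 32851 windows. The form CAGATG, searched on both strands, was in 3 of the 6 windows and in 17.2% of all windows. The windows of Iapp and Ucn3 are shown because both hold that form, while Iapp had 1346 reads in the data and Ucn3 had none. Capitals mark every E-box, and each sequence runs 5′ to 3′ on the gene's own strand.
Iapp, chr6:142298175-142298474, plus strand: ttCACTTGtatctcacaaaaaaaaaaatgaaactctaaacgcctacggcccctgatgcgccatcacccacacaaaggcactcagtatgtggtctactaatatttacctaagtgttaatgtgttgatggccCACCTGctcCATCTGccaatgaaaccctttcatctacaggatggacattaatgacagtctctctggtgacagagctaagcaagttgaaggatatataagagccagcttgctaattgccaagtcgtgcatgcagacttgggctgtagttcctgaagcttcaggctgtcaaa
Ucn3, chr13:3945300-3945599, minus strand: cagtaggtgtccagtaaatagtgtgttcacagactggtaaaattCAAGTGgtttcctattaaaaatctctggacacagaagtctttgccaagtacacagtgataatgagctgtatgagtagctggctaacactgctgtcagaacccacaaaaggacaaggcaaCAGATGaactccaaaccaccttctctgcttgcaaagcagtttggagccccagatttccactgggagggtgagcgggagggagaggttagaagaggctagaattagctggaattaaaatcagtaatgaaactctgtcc
The E-boxes of Iapp begin at -248, -120 and -111 from the start site and those of Ucn3 at -206 and -87. G6pc2 has a second window, chr2:69219699-69219998, which lies inside the annotated gene. It holds 4 E-boxes, 2 of them CAGATG, and that gene had 7 reads in all. Of all windows, 6.49% held 4 or more E-boxes and 17.6% held 3 or more. A match of letters is a description and says nothing of binding.

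The 77 libraries held between 849278 and 9202142 reads on genes (median 4032093), and 76 passed limits for a library (more than 1000000 reads on genes, more than 10000 genes detected and less than 30% of reads on spike-ins). The library left out is 1 pool of WT Ngn3 at 8 days. The limits follow the published methods, and the libraries left out here need not be the same ones as there. At 2 days, 6 pairs of technical repeats lay so close together that the 77 libraries amount to 71 distinct pools. Levels below are counts per 1000000 reads (CPM), a gene's reads divided by its library's reads on genes after edgeR's TMM scaling, and n is 3 biological replicates. The check of the labels held, since Neurog3 itself was at 0.0385 to 0.0732 CPM in GFP-only replicates, 89.6 to 206 CPM with WT Ngn3 and 101 to 198 CPM with 6S-A Ngn3 at 2 days. At 8 days it was at 6.85 to 46.1 CPM with WT Ngn3 and 9.85 to 15.4 CPM with 6S-A Ngn3, against 0 to 0.989 CPM in cells without color. These reads do not separate the transgene from the cell's own gene, whose exon overlaps Fam241b on the other strand by 273 bases. Of 11 duct markers, 10 or 11 were detected in every replicate of every group, with summed levels from 8862 to 41682 CPM.

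A few of the 9 genes carried nearly all of the signal, and several were at or close to 0. Abcc8 had 4745 reads in 59 of the 77 libraries, Iapp had 1346 reads in 30, and Slc2a2 had 176 reads in 38. Kcnj11 followed with 92 reads in 23 libraries and Glp1r with 35 reads in 13. Slc30a8 had 15 reads, G6pc2 had 7, Mafa had 5 and Ucn3 had 0. Among 308291162 reads on genes in all libraries, a count of 0 allows a level of up to 0.00973 CPM for Ucn3, with counting error only. Ucn3 was 1 of 13399 genes of the table without a read. These reads carry no molecular identifiers, so intervals and limits from counts cover counting error only. In pools, fewer cells expressing a gene and less of its RNA per cell cannot be told apart.

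**Figure D1:**
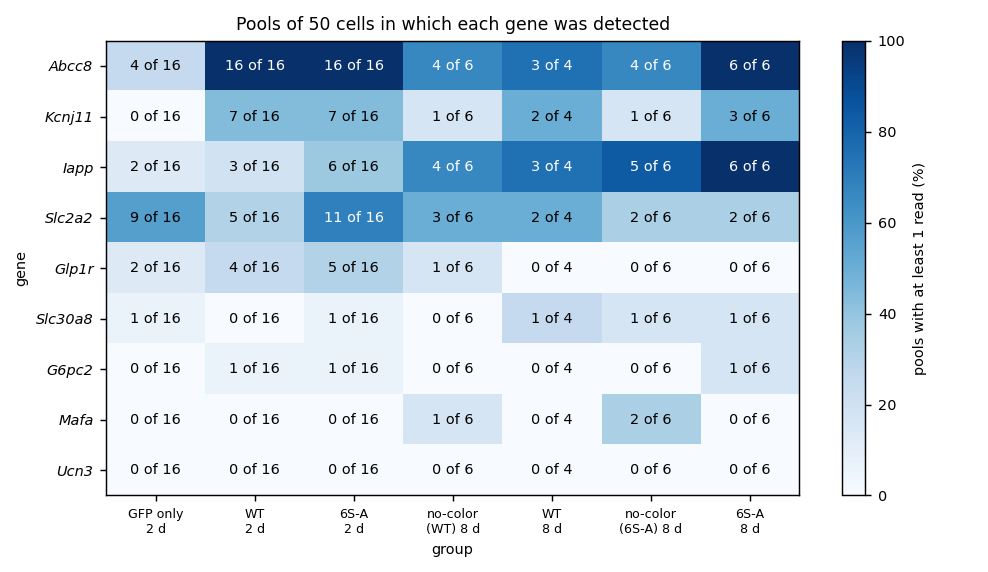
Number of distinct pools of 50 cells with at least 1 read of each gene (rows) in each group (columns), with close technical repeats counted once and only libraries that passed the limits. The shade gives the percentage of pools. Abcc8 was read in 16 of 16 pools of both Ngn3 proteins at 2 days and in 4 of 16 GFP-only pools, while Ucn3 was read in none.

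Mafa, the transcription factor, was not detected in any of the 47 libraries of Ngn3-expressing cells. A count of 0 allows a group level of up to 0.0464 CPM for WT and 0.0473 CPM for 6S-A Ngn3 at 2 days, and of up to 0.158 and 0.0949 CPM at 8 days. Its 5 reads all fell in cells without color at 8 days, 1 in those of WT organoids and 4 in those of 6S-A organoids. The reads were too few for a test, and the gene did not pass the filter on low counts.

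G6pc2, the phosphatase subunit, had its 7 reads in Ngn3-expressing cells alone, with 0 in the control cells of either day. Of these, 5 reads lay in 6S-A Ngn3 at 2 days, all within 1 distinct pool that was sequenced as 2 close libraries, 1 read lay in WT Ngn3 at 2 days and 1 read in 6S-A Ngn3 at 8 days. Against the limit of 3 reads over the GFP-only group, the measured level in 6S-A Ngn3 at 2 days was 1.86-fold higher, with no allowance for counting error in its 5 reads. That value rests on 1 pool and no test was made.

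Slc30a8, the zinc transporter, had 12 of its 15 reads in Ngn3-expressing cells. Of those, 9 reads were in 1 pool of WT Ngn3 at 8 days, the first pool of replicate 1, at 1.64 CPM, and the group's other 3 pools had none. The ratio of summed reads to cells without color was 14.6, with a counting interval of 3.03 to 139 over 9 against 2 reads, and it is the ratio of a single pool. At 2 days WT Ngn3 had 0 reads, 6S-A Ngn3 had 2 and GFP only had 1.

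Glp1r, the GLP-1 receptor, was read almost only at 2 days. In GFP-only cells the 3 replicates had 0, 0.0385 and 0.0925 CPM. With WT Ngn3 they had 0.357, 0 and 0.296 CPM, and with 6S-A Ngn3 0.55, 0.052 and 0.134 CPM. The groups overlapped, and 15 reads with WT and 16 with 6S-A Ngn3 stood against 3 with GFP only. Ratios of summed reads were 5.8 (counting interval 1.64 to 31.2) and 6.3 (1.8 to 33.7). Across replicates the log2 fold changes were 2.27 ± 1.39 (SE) for WT and 2.42 ± 1.39 for 6S-A Ngn3. Neither was called (edgeR's quasi-likelihood test, Benjamini-Hochberg over all genes tested). No p is given, because the gene passed the filter on low counts only through Ngn3-expressing cells. At 8 days 1 read was found, in a cell pool without color.

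Slc2a2, the glucose transporter, was present at a low level in every group, and no comparison called it. Its replicates had 0.659, 0.887 and 1.02 CPM in GFP-only cells, 0.754, 0 and 0.0493 CPM with WT Ngn3 and 0.779, 0.208 and 0.982 CPM with 6S-A Ngn3 at 2 days. At 8 days they had 0.371, 0 and 1.58 CPM with WT Ngn3 and 0.846, 0.234 and 0 CPM with 6S-A Ngn3. Cells without color had 0.722, 0.109 and 0 CPM in WT organoids and 0.306, 0 and 0 CPM in 6S-A organoids. In order of the group means, GFP only (0.854 CPM) came first, followed by 6S-A Ngn3 at 2 days (0.656), WT Ngn3 at 8 days (0.65) and 6S-A Ngn3 at 8 days (0.36). Cells without color of WT organoids (0.277), WT Ngn3 at 2 days (0.268) and cells without color of 6S-A organoids (0.102) came last. Neighbours in this order overlapped, and the groups at its ends, which are of different days, did not. The log2 fold change to GFP only was -1.58 (95% interval -3.66 to 0.51, adjusted p = 0.39) for WT and -0.37 (-2.35 to 1.61, adjusted p = 0.859) for 6S-A Ngn3. To cells without color it was 1.74 (-1.3 to 4.77, adjusted p = 0.737) and 0.95 (-2.03 to 3.93, adjusted p = 0.877), all by edgeR. Without WT replicate 1 at 2 days the gene passed as lower with WT Ngn3 (log2 fold change -4.8, adjusted p = 0.0168).

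Abcc8, the SUR1 subunit, was read in every pool of Ngn3-expressing cells at 2 days. GFP-only replicates had 0.329, 0.116 and 0.231 CPM, WT Ngn3 replicates 6.51, 7.64 and 6.95 CPM, and 6S-A Ngn3 replicates 12, 11.6 and 19.7 CPM. All replicates of both proteins lay above all GFP-only replicates, and those of 6S-A lay above those of WT. Means were 0.225 ± 0.107 CPM (SD, n = 3), 7.03 ± 0.572 CPM and 14.4 ± 4.58 CPM. Single pools varied more, from 2.26 to 13.7 CPM with WT and from 0.669 to 39.8 CPM with 6S-A Ngn3, while 13 of the 18 GFP-only libraries had no read.

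Kcnj11, the pore that SUR1 surrounds, was at 0 reads in all 18 GFP-only libraries. WT Ngn3 replicates had 0.436, 0.576 and 0.197 CPM from 26 reads, and 6S-A Ngn3 replicates had 0.229, 0.156 and 0.357 CPM from 16 reads. Set against 3 reads over the GFP-only group as its limit, the measured level was 10.1-fold higher with WT and 6.18-fold higher with 6S-A Ngn3. These ratios do not allow for counting error in the 26 and 16 reads. Both groups lay above all GFP-only replicates and overlapped each other. The gene passed the filter on low counts (a read in at least 5 libraries of the day) only through Ngn3-expressing cells.

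Iapp, the amylin gene, was low at 2 days. GFP-only replicates had 0.11, 0.0385 and 0 CPM, WT Ngn3 replicates 0.198, 0.262 and 0.148 CPM and 6S-A Ngn3 replicates 0.733, 0.676 and 0.893 CPM. The 3 groups did not overlap, and their means were 0.0494 ± 0.0557, 0.203 ± 0.057 and 0.767 ± 0.112 CPM (SD, n = 3). Its reads came from few pools, 3 of 16 with WT and 6 of 16 with 6S-A Ngn3.

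**Figure D2:**
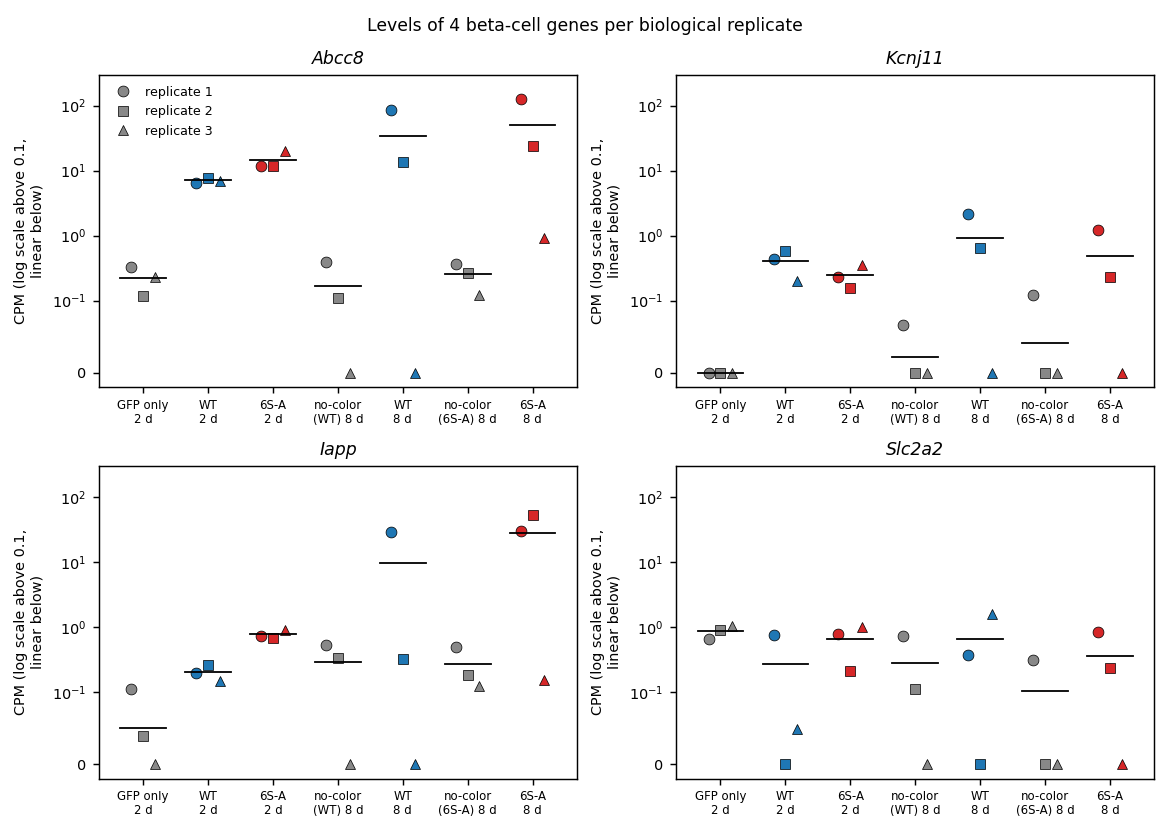
CPM of Abcc8, Kcnj11, Iapp and Slc2a2 in each biological replicate (symbols) of the 7 groups, with the group mean as a line, on a log scale above 0.1 and a linear scale below. Abcc8 at 2 days lay between 6.51 and 19.7 CPM with either Ngn3 protein and between 0.116 and 0.329 CPM with GFP only, whereas at 8 days the replicates of each protein spanned the range from near 0 to over 80 CPM.

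At 2 days the filter left 5 of the 9 genes to test, Abcc8, Kcnj11, Iapp, Slc2a2 and Glp1r, among 23844 genes. Abcc8 and Slc2a2, read in 5 and 10 of the 18 GFP-only libraries, would have passed that filter without Ngn3-expressing cells, while Kcnj11 (0 libraries), Iapp (2) and Glp1r (3) passed it only through them, so a count of calls over the 5 is no support for a change. With that limit, edgeR called 2 of the 5 as higher with WT Ngn3 (Abcc8 and Kcnj11), where 6.56% of all genes tested rose, 5.23% fell and 11.8% passed in either direction. It called 3 of the 5 as higher with 6S-A Ngn3 (also Iapp), where 9.43% rose, 8.62% fell and 18.1% passed. The log2 fold change of Abcc8 was 4.93 ± 0.38 (SE, adjusted p = 1.9e-06) with WT and 5.96 ± 0.39 (adjusted p = 2.2e-07) with 6S-A Ngn3, in 3 of 3 replicates each. For Kcnj11 and Iapp no p is given, because of how they passed the filter, and their calls were lost when 1 technical repeat per replicate, the first, was kept. For Iapp the log2 fold change was 1.87 ± 0.93 with WT and 3.76 ± 0.9 with 6S-A Ngn3, all by edgeR's quasi-likelihood test. Both comparisons share the GFP-only samples.

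6S-A against WT Ngn3 at 2 days gave no call among the 5 genes, where 0.0126% of all genes passed (0.00839% higher and 0.00419% lower). The log2 difference of Abcc8 was 1.02 (95% interval 0.42 to 1.63, adjusted p = 0.473) and that of Iapp 1.89 (0.17 to 3.6, adjusted p = 0.816), with all 3 6S-A replicates above all 3 WT replicates for both genes. For Kcnj11 it was -0.69 (-2.62 to 1.24), for Slc2a2 1.21 (-0.89 to 3.31) and for Glp1r 0.15 (-2.48 to 2.78), each with adjusted p = 1. At unadjusted p under 0.05, 1380 of the 23844 genes differed.

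At 8 days the levels of Abcc8 spread widely between replicates. WT Ngn3 replicates had 86.7, 13.8 and 0 CPM and 6S-A Ngn3 replicates 126, 23.9 and 0.921 CPM. Cells without color had 0.394, 0.109 and 0 CPM in WT organoids and 0.367, 0.27 and 0.123 CPM in 6S-A organoids. Replicates 1 and 2 of both proteins lay above all control replicates, replicate 3 of 6S-A lay above them with 6 reads, and replicate 3 of WT had no read. Means were 33.5 ± 46.6 CPM and 50.3 ± 66.7 CPM (SD, n = 3) against 0.168 ± 0.203 and 0.253 ± 0.123 CPM.

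Kcnj11 followed the same order at a lower level, with 2.13, 0.64 and 0 CPM for WT and 1.21, 0.234 and 0 CPM for 6S-A Ngn3. In cells without color it had 3 reads in all 12 libraries. Of the 25 reads with WT Ngn3, 23 lay in 1 pool, and of the 22 reads with 6S-A Ngn3, 18 lay in 1 pool. No ratio of summed reads to those cells is given, and the log2 fold changes of Kcnj11 below rest mostly on these pools.

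Iapp had 29, 0.32 and 0 CPM with WT and 29.9, 52.3 and 0.154 CPM with 6S-A Ngn3, so it was high in 1 WT replicate and in 2 6S-A replicates. Cells without color had 0.525, 0.326 and 0 CPM in WT organoids and 0.49, 0.18 and 0.123 CPM in 6S-A organoids, a level that the remaining WT and 6S-A replicates did not exceed. Within replicate 2 of 6S-A Ngn3, 1 pool had 97.4 CPM and the other 0.503 CPM. Across the 10 pools of both proteins, the log2 levels (log2 of CPM + 1) of Abcc8 and Iapp had r = 0.762 and Spearman's rho = 0.661, where pools of a replicate share their culture, and across 32 distinct pools at 2 days r = 0.312 and rho = 0.124.

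**Figure D3:**
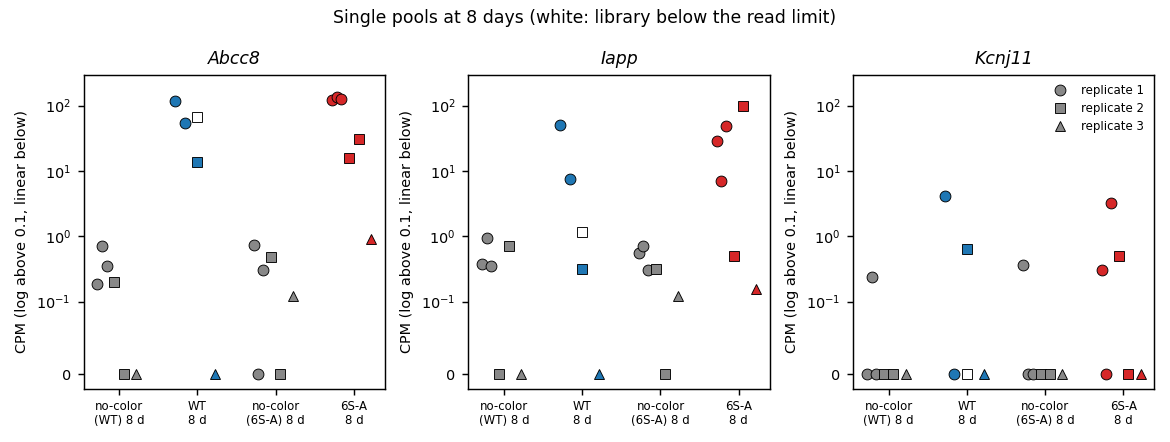
CPM of Abcc8, Iapp and Kcnj11 in single pools of the 4 groups at 8 days, with symbols for the biological replicate and a white symbol for the pool left out by the limit on reads. All 5 pools of replicate 1 with either protein had at least 54.9 CPM of Abcc8, the pools of replicate 2 that passed the limit had 13.8 to 30.8 CPM, and the single pools of replicate 3 had 0 and 0.921 CPM.

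Some other marker sums moved with these replicates, and others did not. The summed level of 4 delta cell markers, of which 3 were detected in each replicate, was 1883, 142 and 244 CPM for WT and 1891, 1908 and 157 CPM for 6S-A Ngn3, against 260 to 576 CPM in cells without color. Somatostatin (Sst) carried the differences in this sum, at 4.35 to 1600 CPM with WT and 2.46 to 1586 CPM with 6S-A Ngn3 (means 538 and 1030 CPM). Cells without color had 1.26 to 9.19 CPM of Sst (means 5.24 and 3.18 CPM), a range that held the lowest replicate of each protein. Hhex was lower (means 134 and 132 CPM against 236 and 443 CPM), and Rbp4 was at 84.3 and 157 CPM against 73.9 and 82.2 CPM. None of these genes passed the test. The fourth marker, Ghsr, had no read at 8 days. The 3 markers of PP and epsilon cells summed to 1766, 1.28 and 2.96 CPM for WT and 1596, 202 and 35.8 CPM for 6S-A Ngn3, against 0.123 to 6.33 CPM. The 6 enterochromaffin cell markers summed to 18.5, 131 and 1.58 CPM for WT and 18.2, 20 and 23.8 CPM for 6S-A Ngn3. This is another order, and cells without color had 1.72 to 7.64 CPM. The 7 alpha cell markers summed to 753, 756 and 1177 CPM and to 815, 1185 and 651 CPM, against 664 to 2717 CPM in cells without color. Most of the alpha sum was Gc (means of 882 and 861 CPM), and Gcg had no read with either protein at 8 days. The 30 genes of beta cell machinery summed to 2391, 1331 and 243 CPM and to 2937, 1431 and 602 CPM, against 102 to 191 CPM. The 17 beta cell transcription factors summed to 490, 299.7 and 178 CPM and to 773, 478 and 305 CPM, against 158 to 324 CPM. For these factors, WT replicates 2 and 3 and 6S-A replicate 3 lay within the range of cells without color. Both sums were in the order of Abcc8. Iapp was high in the 3 replicates with the 3 highest delta sums. Neurog3 was not lower in replicate 3 (14.2 and 15.4 CPM) than in replicate 1 (6.85 and 9.85 CPM). Replicate 3 at 8 days was of organoid passage 5, with 1 pool per group, and all others were of passage 2. The part of these markers and of the passage in the result was not tested.

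At 8 days 4 genes could be tested, Abcc8, Kcnj11, Iapp and Slc2a2, among 19696 genes. Kcnj11, read in 2 of the 12 libraries without color, passed the filter only through Ngn3-expressing cells, which limits its values here. WT Ngn3 against the mean of both groups without color gave no call among the 4, where 0.914% of all genes passed (0.741% higher and 0.173% lower) and 2070 genes had an unadjusted p under 0.05. The log2 fold changes were 7.02 ± 1.57 (SE, adjusted p = 0.0737) for Abcc8, 4.94 ± 1.48 (adjusted p = 0.199) for Iapp and 4.23 ± 1.5 (adjusted p = 0.279) for Kcnj11. DESeq2 called Abcc8 (adjusted p = 0.0014). Blocking on the replicate number, where number 3 is passage 5 in all 4 groups, called Abcc8 (adjusted p = 5.8e-06) and Iapp (adjusted p = 0.0406). Without WT replicate 1 the log2 fold change of Iapp turned to -1.21, and without WT replicate 3 Abcc8 passed (adjusted p = 0.0102).

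6S-A Ngn3 raised 1 of the 4 genes, Abcc8, where 1.37% of all genes rose, 0.34% fell and 1.71% passed in either direction. Its log2 fold change was 7.58 ± 1.58 (SE, adjusted p = 0.0372), higher in 3 of 3 replicates. The call was lost when any 1 replicate other than 6S-A replicate 3 was left out, controls included, with adjusted p between 0.0615 and 0.151. It was also lost against the cells without color of the 6S-A organoids alone (adjusted p = 0.21). With passage 2 only, which was chosen after seeing the data, Abcc8 passed for both proteins (adjusted p = 0.0048 for WT and 0.0024 for 6S-A) and Iapp for 6S-A (adjusted p = 0.0164). Over all replicates Iapp had a log2 fold change of 6.37 ± 1.53 (adjusted p = 0.0636, 0.0075 by DESeq2 and 0.0013 with the replicate block) and Kcnj11 of 3.31 ± 1.47 (adjusted p = 0.376).

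**Figure D4:**
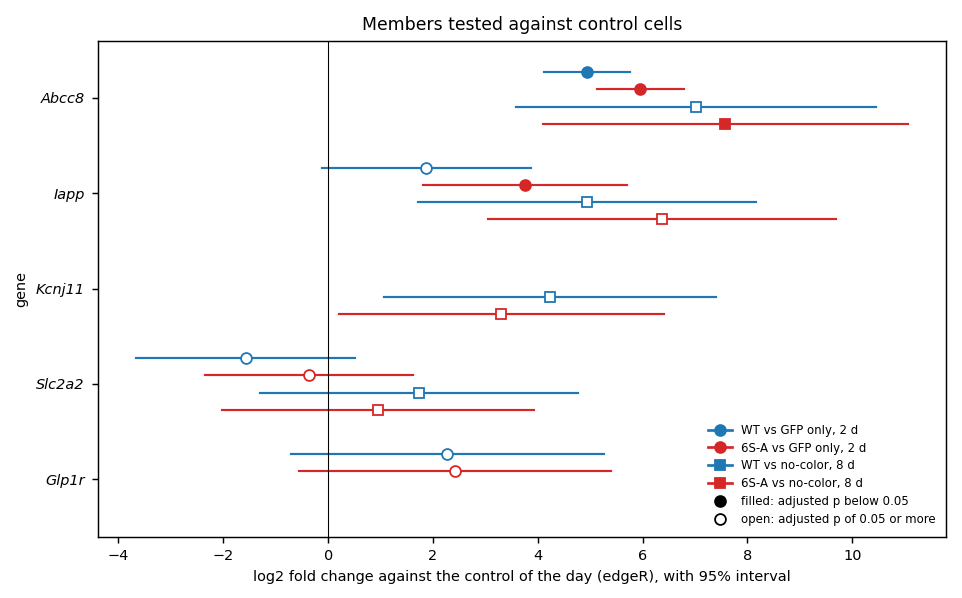
log2 fold change of the genes tested against the control of the day, with 95% intervals from edgeR, for WT (blue) and 6S-A Ngn3 (red) at 2 days (circles) and 8 days (squares), filled where the adjusted p was below 0.05. Kcnj11 at 2 days is left out because the control had no read. Intervals for Abcc8 lay above 0 in all 4 comparisons, and those for Slc2a2 and Glp1r included 0.

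6S-A against WT Ngn3 at 8 days gave no call among the 4 genes, as for all genes (0%), with 415 genes at an unadjusted p under 0.05. The log2 difference was 0.57 (95% interval -2.73 to 3.86) for Abcc8, 1.43 (-2.02 to 4.89) for Iapp, -0.92 (-4.37 to 2.53) for Kcnj11 and -0.79 (-4.37 to 2.8) for Slc2a2, each with adjusted p = 1. Blocked on the replicate number, it was 0.86 ± 0.57 (SE) for Abcc8 and 2.19 ± 1.19 for Iapp, again with adjusted p = 1 by edgeR. The joint fit of both days left 6 genes to test, with Slc30a8 in addition. Whether the difference between the proteins changed from 2 to 8 days gave no call among the 6, where 0% of 24945 genes passed and 750 had an unadjusted p under 0.05. From 2 to 8 days no gene of the 6 passed with WT (0.116% of all genes, 0.0321% higher and 0.0842% lower) or with 6S-A Ngn3 (0.433%, 0.233% higher and 0.2% lower). The log2 change of Iapp was 5.58 (2.27 to 8.9, adjusted p = 0.296) with WT and 5.15 (2.01 to 8.29, adjusted p = 0.161) with 6S-A Ngn3, and that of Abcc8 was 2.27 (-0.37 to 4.91) and 1.81 (-0.78 to 4.4), where the median over all genes was -0.135 and -0.123. DESeq2 called Iapp for both proteins (adjusted p = 0.0397 and 0.0331). Without replicate 1 of WT at 8 days the value of Iapp with WT turned to -0.63, and without replicate 1 of the respective protein those of Abcc8 turned to -0.09 and -0.21. The day cannot be told apart from the culture and sort that go with it.

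The 2 subunits of the K-ATP channel were compared per length, as CPM per kilobase (kb) of exon, a level that allows for the 8090 bases of Abcc8 and the 3677 of Kcnj11. At 2 days Abcc8 was at 0.869 per kb and Kcnj11 at 0.11 per kb with WT Ngn3, and at 1.78 and 0.0673 per kb with 6S-A Ngn3. The ratio of Abcc8 to Kcnj11 per kb was 6.78, 6.03 and 16 in the WT replicates and 23.7, 33.6 and 25.1 in the 6S-A replicates. The 6S-A ratio was 3.13 times that of WT (exact permutation test, two-sided p = 0.1), which is the smallest p that 3 against 3 replicates allow, and Kcnj11 had 3 to 11 reads per replicate. In replicate 1 at 8 days the ratio was 18.5 for WT and 47.5 for 6S-A Ngn3, and the other replicates had under 3 reads of Kcnj11. The group level per kb of Abcc8 was above that of Kcnj11 with both proteins on both days.

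Pools rarely held many of the 9 genes at once. Among the distinct pools of Ngn3-expressing cells, the median number detected was 2 of 9 with WT and 3 of 9 with 6S-A Ngn3 at 2 days, and 2.5 and 3 at 8 days, against 1 in GFP-only pools and 2 or 2.5 in pools without color. The most was 5, reached by 1 pool of WT Ngn3 at 8 days, with 645 reads of Abcc8, 273 of Iapp, 23 of Kcnj11, 9 of Slc30a8 and 4 of Slc2a2, and by 1 pool of 6S-A Ngn3 at 2 days, where the counts besides Abcc8 (29 reads) were 1 to 3. Kcnj11 was read in 19 of 42 distinct Ngn3 pools and each of them also held Abcc8, which was read in 41 of the 42.

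For several genes near 0, a relative with a related task was read at a higher level. Per kb of exon, GLUT1 (Slc2a1), the transporter of many tissues, was at 91.2 in GFP-only cells, 39.9 with WT and 28.5 with 6S-A Ngn3 at 2 days, and at 47.9 to 81.4 over the groups of 8 days, against 0.0177 to 0.148 for Slc2a2 over all groups. The widely expressed phosphatase subunit G6pc3 was at 19.8 to 29.4 per kb, against at most 0.0377 for G6pc2. Slc30a6, a zinc transporter of the secretory pathway, was at 11.9 to 17.1 per kb. The GIP receptor Gipr was at 0.032 to 0.941 per kb, highest with 6S-A Ngn3 at 8 days, where Glp1r had no read. Abcc9, which encodes SUR2, was at most 0.0221 per kb and lay below the level of Abcc8 within each of the 7 groups. Kcnj8, which encodes Kir6.1, was at 0 to 0.218 per kb, beside 0 to 0.251 per kb for Kcnj11.

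**Figure D5:**
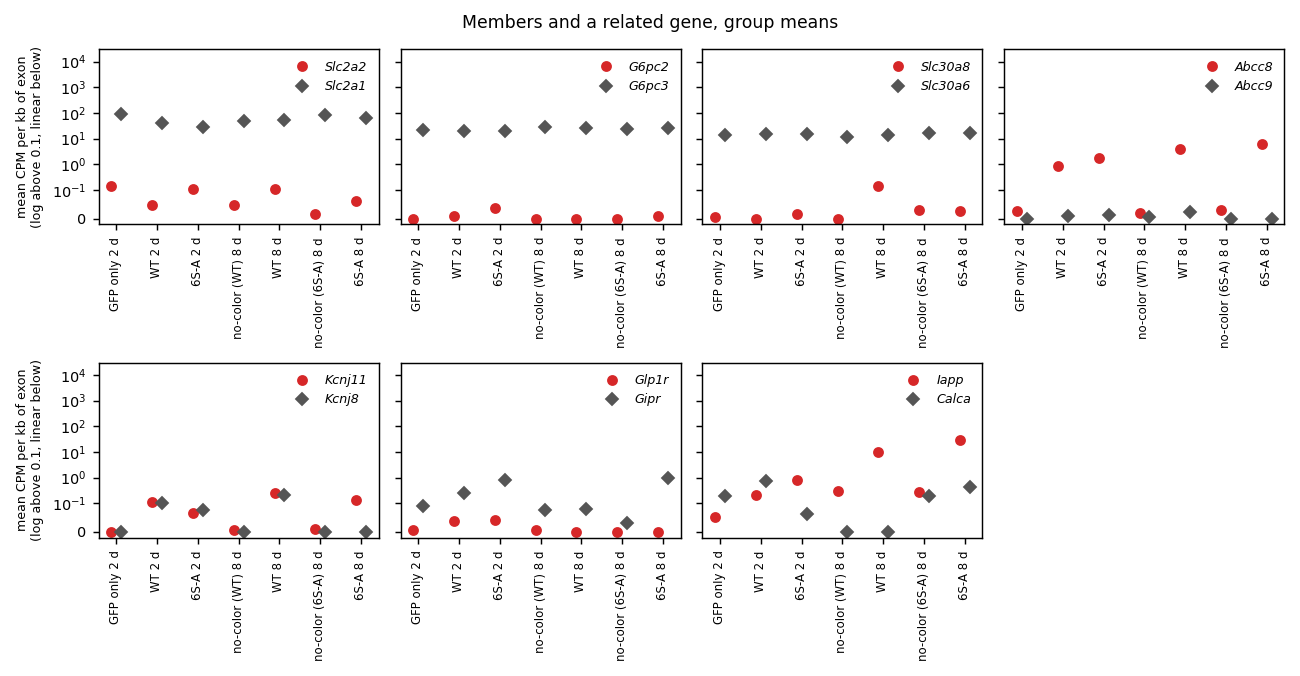
Mean CPM per kb of exon of 7 of the genes (red circles) and of a related gene (grey diamonds) in the 7 groups, on a log scale above 0.1 and a linear scale below. Slc2a1 lay at 28.5 to 91.2 in every group and Slc2a2 at 0.148 or less, while Abcc8 rose to 6.22 and Abcc9 stayed at 0.0221 or less.

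In the list of 36 relatives of the 9 genes, 26 were tested at 2 days, with 3 higher and 3 lower for WT and 4 higher and 3 lower for 6S-A Ngn3, and a median log2 fold change of -0.02 and -0.075 (0.01 and 0.02 over all genes). Of all genes tested 6.56% were higher and 5.23% lower with WT, and 9.43% and 8.62% with 6S-A Ngn3. Slc2a1 fell by 1.18 with WT and by 1.68 with 6S-A Ngn3 on the log2 scale (adjusted p = 0.00036 and 1.3e-05), and Maf rose by 2.49 and 2.19 (5.8e-05 and 8.1e-05), all by edgeR. Gipr rose by 3.1 with 6S-A Ngn3 (adjusted p = 0.003). At 8 days 19 were tested and Maf was the only one called, by 2.61 and 2.37 (0.0052 and 0.0068), where 0.914% of all genes passed with WT and 1.71% with 6S-A Ngn3.

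Insulin itself was not found, with 0 reads of Ins2 and 1 read of Ins1 in all 77 libraries, and that read lay in a pool without color. The wider list of 30 genes of the beta cell's secretory and electrical machinery, of which those 2 genes are members, was tested on the same fits. At 2 days 15 of 27 tested were higher with WT and 18 of 27 with 6S-A Ngn3, none was lower, and the median log2 fold change was 2.14 and 2.8, beside 6.56% and 9.43% of all genes higher and medians of 0.01 and 0.02. At 8 days 4 of 27 and 7 of 27 were higher and none lower, with medians of 3.06 and 4, beside 0.741% and 1.37% of all genes and medians of 0.01 and 0.04. Genes such as Pcsk2 (2 reads with GFP only) passed the filter at 2 days only through Ngn3-expressing cells, how many was not counted, and these counts and medians are no support for a change of the list. Chga and Chgb, granule proteins of all endocrine cells, had 121 ± 94.7 and 173 ± 138 CPM with WT and 218 ± 47.2 and 130 ± 172 CPM with 6S-A Ngn3 at 2 days, against 0.405 ± 0.287 and 0.32 ± 0.208 CPM with GFP only. Pcsk2, a prohormone convertase, had 15.1 ± 15.9 and 26.5 ± 7.47 CPM against 0.0244 ± 0.0423 CPM, and Ptprn2, a granule membrane protein, had 21.9 ± 13.4 and 31 ± 10.6 CPM against 0.0533 ± 0.0211 CPM.

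Of 17 transcription factors of the beta cell lineage, 11 rose with WT and 12 with 6S-A Ngn3 at 2 days (all 17 tested), and 7 and 8 of 16 at 8 days, beside 6.56% and 9.43% of all genes at 2 days and 0.741% and 1.37% at 8 days. Neurod1 and Rfx6 (1 and 3 reads with GFP only) passed the filter at 2 days only through Ngn3-expressing cells, so these counts too are a description and no support. Nkx6-1, a factor of beta cells, was the member that fell, by 2.12 with 6S-A Ngn3 at 2 days (adjusted p = 0.0234). Neurod1, a transcription factor downstream of Ngn3, had 68.1 ± 60.4 and 73.4 ± 23.1 CPM with WT and 6S-A Ngn3 at 2 days against 0.0122 ± 0.0211 CPM with GFP only, and Rfx6, needed for islet cell development, 51.4 ± 41.8 and 74.2 ± 13.5 CPM against 0.0379 ± 0.0386 CPM. Pdx1, a factor of duct progenitors and of beta cells, was at 10.9 ± 2.21 CPM with GFP only, 7.31 ± 0.657 with WT and 6.84 ± 1.12 with 6S-A Ngn3, and was not called. Nkx6-1 and Pdx1 were named here after their values were seen.

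Among 12 genes that mature beta cells keep silent, 3 rose and 3 fell with each protein at 2 days. Of all genes, 11.8% passed in either direction with WT and 18.1% with 6S-A Ngn3 at 2 days, and 0.914% and 1.71% at 8 days, and the counts of this list and of the marker lists after it stand beside these shares. Cxcl12 rose by 2.56 and 2.91 and Slc16a1, a transporter of lactate and pyruvate, by 1.23 and 1.64 on the log2 scale, while Igfbp4 fell by 1.08 and 1.66 (adjusted p between 4.9e-06 and 0.0022, edgeR). At 8 days 1 rose for WT, and 2 rose and 1 fell for 6S-A Ngn3. Of 11 duct markers 7 fell with either protein at 2 days, 2 with WT and 3 with 6S-A Ngn3 at 8 days, and none rose, with Krt19, a duct keratin, at log2 fold changes of -1.53 and -2.58 at 2 days. Of markers of alpha cells, 2 of 5 tested rose and 1 fell with WT and 3 rose and 1 fell with 6S-A Ngn3 at 2 days. Of delta cell markers, 1 of 3 fell with WT, and 1 rose and 1 fell with 6S-A Ngn3, and the 1 marker of PP and epsilon cells tested rose with both. Of 5 enterochromaffin cell markers tested, 2 rose with each protein. Of 6 acinar markers 1 fell with WT and none passed with 6S-A Ngn3, and of 5 markers of mesenchyme, endothelium and blood none passed with WT and 1 rose with 6S-A Ngn3. At 8 days these lists gave 2 calls with WT (both enterochromaffin) and 2 with 6S-A Ngn3 (1 alpha and 1 enterochromaffin), all upwards.

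By likeness over the 21 biological replicates (Pearson's r of log2 CPM among 14582 genes with a mean of at least 1 CPM), Abcc8 lay closest to Pcsk2 (r = 0.963), Ap3b2, a neuronal adaptor subunit (0.952), and Th, tyrosine hydroxylase (0.95). Kcnj11 lay closest to Abcc8 (0.907), Th (0.882) and Chgb (0.88). Iapp lay closest to the peptide hormone gene Pyy (0.914), to Scg2, a granin (0.889), and to Sst, somatostatin (0.841). Slc2a2 lay closest to Gramd2 (0.77), Stag3 (0.765) and Lipg (0.733), genes of 398 to 595 reads. The 21 replicates come from 7 groups, so these values describe the order of levels only.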

How the data were processed

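The authors sorted pools of 50 cells, made Smart-seq2 libraries, aligned single-end reads to mm10 with GSNAP and counted them per Ensembl 81 gene with HTSeq 0.5.3p3, and they deposited raw read counts per gene for 77 libraries. The version is from the submitters' processing notes. An extraction text in the labels describes GFP-positive cells for all pools, and the sample labels were followed for the cells without color. The 76 libraries kept had more than 1000000 reads on genes, more than 10000 genes detected and less than 30% of reads on spike-ins, and technical repeats were summed per biological replicate (3 per group). Depth over all 77 libraries was 849278 to 9202142 reads on genes, and the lowest value is that of the library left out. Reads without a gene were 14.4% (no feature), 8.06% (ambiguous) and 22.5% (not aligned) and were left out. The line for reads aligned to several places is 0 in all libraries, so how such reads were treated is not shown, and levels of genes with close copies, such as Ins1 and Ins2, are uncertain.

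Counts were tested with edgeR 4.0.16 (R 4.3.3), by the robust quasi-likelihood test with TMM scaling and Benjamini-Hochberg adjustment over all genes read in at least 5 libraries of the day, with a threshold of 0.05. The 2-day and 8-day samples were fitted apart, with both groups without color averaged as the control, and together for comparisons of days. Alternatives were DESeq2 1.42.0, scran 1.30.0 size factors, other filters, the first technical repeat, a replicate block, the protein's own cells without color and each replicate left out. Lengths and positions were from GENCODE M21.

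The 9 genes, the lists (beta cell machinery, beta cell transcription factors, relatives, genes silent in beta cells, and markers of alpha, delta, PP and epsilon, enterochromaffin, duct, acinar and other cells) and the tests were chosen with earlier results of these data known. All 9 genes are described. Of each other list, at most 4 genes per day with the largest log2 fold change among those called are named, with relatives named for their level. Some genes that this rule names are not reported here. For genes read in at least 15 libraries, the 3 genes of highest correlation are named.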

Additional observations from a re-analysis of the deposited data

Results flagged for a closer look

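In 7 of 13 sets of single pools (1 gene in 1 group at 8 days), the highest pool stood apart from the rest by Dixon's test at 95%, which flags about 1 in 20 sets by chance for normal values. These sets hold many zeros and low counts and mix replicates and passages, so that rate does not hold for them. Of these, 3 were in the first pool of WT Ngn3 replicate 1. It had 4.19 CPM of Kcnj11 (next 0.64), 49.7 CPM of Iapp (next 7.54) and 1.64 CPM of Slc30a8 (all others 0, so the pool stands apart by construction). The third pool of 6S-A Ngn3 replicate 1 had 3.22 CPM of Kcnj11 (next 0.503). Slc2a2 stood apart in 3 pools, at 2.12 CPM in the first pool of 6S-A Ngn3 replicate 1 (next 0.438), at 2.15 CPM in the second pool without color of WT replicate 1 (next 0.355) and at 0.726 CPM in the first pool without color of 6S-A replicate 1 (next 0.233).

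The library of WT Ngn3 at 8 days that was left out for its 849278 reads, the first pool of replicate 2, had 67.4 CPM of Abcc8 from 59 reads, against 0.726 CPM in the highest pool without color. It had 5.71 CPM of Slc2a2 from 5 reads, against 2.15 CPM. The other pool of that replicate had 13.8 CPM of Abcc8 and no read of Slc2a2.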

How the results depend on the processing

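Counts at 2 days include Kcnj11 and Iapp, which passed the filter only through Ngn3-expressing cells. At 2 days, the calls of WT Ngn3 against GFP only (2) became 1 with edgeR's own filter and 1 with the first technical repeat, and those of 6S-A Ngn3 (3) became 1 with the first repeat. At 8 days, the calls of WT Ngn3 (0) became 1 with DESeq2, 1 with edgeR's own filter, 2 with no filter and 1 with passage 2 only, and those of 6S-A Ngn3 (1) became 2, 2, 2 and 2 under these settings, 0 with the first repeat and 0 against its own cells without color. From 2 to 8 days the calls (0 for both proteins) became 1 with DESeq2, 2 with no filter and 1 with passage 2 only. Leaving out 1 replicate gave 0 to 1 calls for WT and 0 to 2 for 6S-A Ngn3 at 8 days. The cause was not tested. Passage 2 only, and counting close repeats once, were chosen after seeing the data.

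In a fit blocked on the replicate number, calls at 8 days became 2 for WT and 2 for 6S-A Ngn3, Abcc8 and Iapp in both. Same-numbered samples correlated at 0.0714 to 0.305 at 2 days and 0.0956 to 0.559 at 8 days. Samples of other numbers correlated at -0.253 to 0.0231 and -0.378 to 0.126. Each of the 9 and 12 samples correlated best with its own number. The main fits did not use the numbers as pairs, because not all values were over 0.1. They leave this likeness in the spread between replicates, so their p-values at 8 days differ from those of the blocked fit. No block was fitted across days.

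With the first repeat, 6S-A minus WT turned to -1.56 for Slc2a2 at 2 days and to -0.72 for Iapp at 8 days. With passage 2 only, Slc2a2 at 8 days turned to -0.204 for WT against its control and to 1.23 for 6S-A minus WT. Leaving out 1 replicate, log2 values changed sign within these ranges. For 6S-A minus WT, Glp1r at 2 days spanned -1.2 to 0.69, and at 8 days Kcnj11 -2.85 to 0.76, Slc2a2 -2.31 to 0.73 and Abcc8 -1.46 to 2.93. Against controls, Slc2a2 spanned -0.78 to 0.0483 for 6S-A at 2 days and -0.59 to 2.51 at 8 days, and Iapp -1.21 to 5.51 for WT at 8 days. From 2 to 8 days, Abcc8 spanned -0.0871 to 2.85 for WT and -0.21 to 2.38 for 6S-A, and Iapp -0.63 to 6.16 for WT.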
